A study of Homo sapiens with 27 samples.

Results

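The nuclear pore and the nuclear transport machinery were examined in the human cell line U937, which was established from a histiocytic lymphoma and resembles monocytes, through the 49 genes whose symbol in the array's probe table marks a nucleoporin, an importin or karyopherin, an exportin, a transportin or a regulator of the Ran GTPase. They were chosen by symbol and not by any measured value, as all symbols beginning with NUP, XPO, IPO, KPNA or KPNB and a digit, plus TNPO1, TNPO2, TNPO3, AAAS, RAE1, SEH1L, TPR, RANBP1, RANBP2, RANGAP1 and RCC1, out of 15240 genes named on the array. RAN itself, KPNA2 and KPNA7 had no named probe here. The series set 3 groups side by side. The first was treated with PBD150 at 10 µM for 2 h and then with lipopolysaccharide (LPS, the endotoxin of Gram-negative bacteria) at 4 µg/ml. The second was given LPS alone at the same dose, and the third was left untreated. PBD150 inhibits glutaminyl cyclase (QC), which turns an N-terminal glutamine into pyroglutamate. All cells were cultured for 48 h, and the labels call them macrophages but name no differentiating agent. Each group had 3 biological replicates, called cultures below, with 3 one-colour arrays each. Nothing given here says how independently the cultures were grown, so p-values measure the spread between these 9 cultures.

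Nuclear pores are channels through the nuclear envelope, built from many copies of the nucleoporins. An outer ring of Y-shaped complexes and an inner ring form the scaffold, nucleoporins with phenylalanine-glycine (FG) repeats fill the channel, and filaments and a basket extend to the cytoplasm and the nucleus. Cargo crosses on transport receptors, the importins and exportins, which let go of or take up cargo according to the GTP state of Ran. In monocytes and macrophages the same route carries inflammatory transcription factors into the nucleus and transcripts out of it.

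All levels are log2 intensity after quantile normalisation of the 27 arrays, and differences are on the same log2 scale. Probes differ in brightness, so no gene's level is set against another's. Array medians ranged from 41.5 to 100.3 intensity units, and 69.0% to 77.8% of probes on an array exceeded its noise limit (3 times the root mean square of the values below 0). Of the 49 genes, 36 exceeded it on all 27 arrays and 45 on all arrays of at least 1 group. The other 4 were KPNB1 (importin-beta 1), above the limit on 0 arrays, NUP210L, NUP62CL and IPO8, and no fold is given for them. Of 9 measured monocyte and macrophage markers, 8 exceeded the limit on all arrays in each group. Markers of T or NK cells (5, 6 and 5 of 7 with PBD150 plus LPS, LPS and no treatment) and of B cells (4 of 5 in each group) also did.

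Messages of the pore and its transport receptors were lower in both treated groups than in untreated cells. With PBD150 plus LPS, 36 of the 49 genes fell and 1 rose against untreated cells, at an adjusted p under 0.05 (limma, two-sided, Benjamini-Hochberg over 30968 probes). Of all named genes, 17.9% fell and 15.3% rose in that comparison. With LPS alone, 33 fell, 30 of them at least 2-fold, and 1 rose, where 15.4% of all named genes fell, 12.4% by at least 2-fold, and 13.5% rose. The median difference of the 49 genes was -1.38 for PBD150 plus LPS minus untreated and -1.38 for LPS minus untreated, while the median over all named genes was 0.06 and 0.05. In each of these comparisons every treated culture lay below every untreated one for 40 of the 49 genes, as it did for 27% of all named genes with PBD150 plus LPS and 24.7% with LPS. Of the 37 calls with PBD150 plus LPS, 28 held under all 19 alternative settings run for single genes, and of the 34 with LPS, 21 did. The 2 comparisons share the untreated arrays and are not independent of each other. The gene that rose in both was NUP214. Without LPS replicate 3, the count for LPS was 22 in place of 33. The RNA is from bulk cultures, so less RNA of these genes per cell and fewer cells rich in it cannot be told apart. The arrays are also scaled to one distribution, so a fall is relative to the other genes. A change in total RNA per cell would not be seen.

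**Figure D1:**
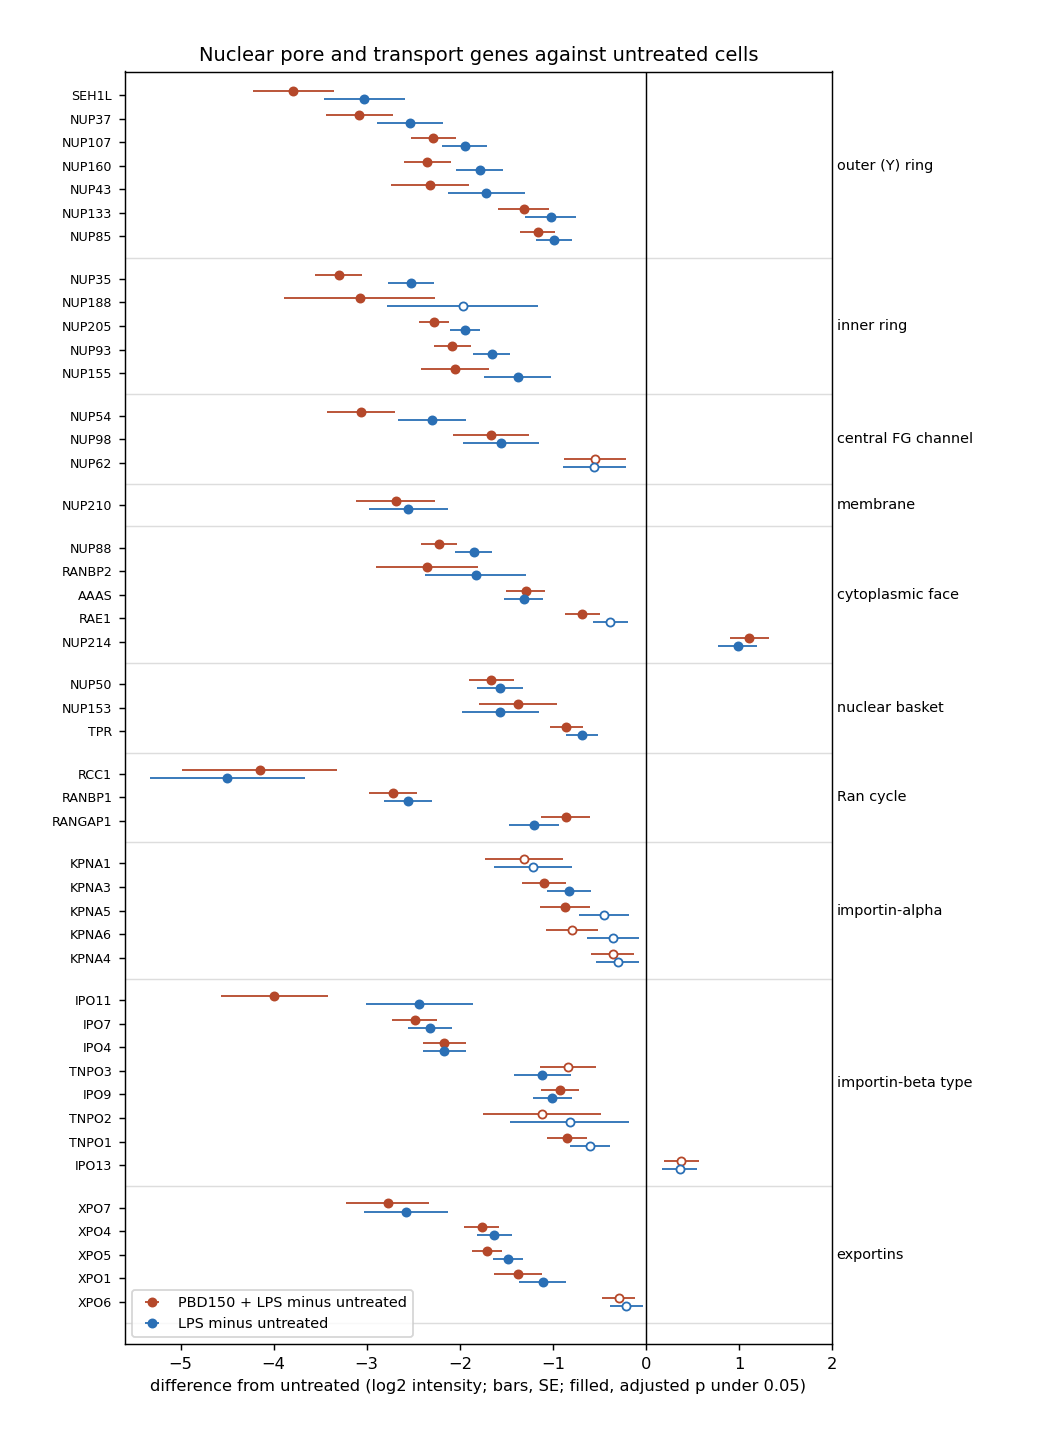
Difference from untreated cells (x axis, log2 intensity) of the 45 genes above the noise limit on all arrays of at least 1 group, sorted by place or role. Red points are PBD150 plus LPS minus untreated, blue points LPS minus untreated, bars are SE, and filled points have an adjusted p under 0.05; NUP214 and IPO13 alone lie to the right of 0.

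By place in the pore, all 7 outer ring genes and all 5 inner ring genes fell with PBD150 plus LPS, as did 7 and 4 with LPS alone. All 3 basket genes and all 3 measured Ran regulators fell in both groups, and so did 4 of 5 exportins. These counts are those of the main setting. The NUP153 call was lost under 10 of 19 alternative settings with PBD150 plus LPS and under 9 with LPS. That of TPR with LPS was lost under 8, and that of RANGAP1 with PBD150 plus LPS under 13. The last section names every call so lost, in the other roles as well. Of the importin-alpha genes 2 of 5 fell with PBD150 plus LPS and 1 of 5 with LPS. KPNA1 is not among them by its brighter probe, but its dimmer probe was called lower in both groups. The importin-beta type receptors had 5 of 10 lower in each. These role groups are small and were not tested against each other.

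**Figure D2:**
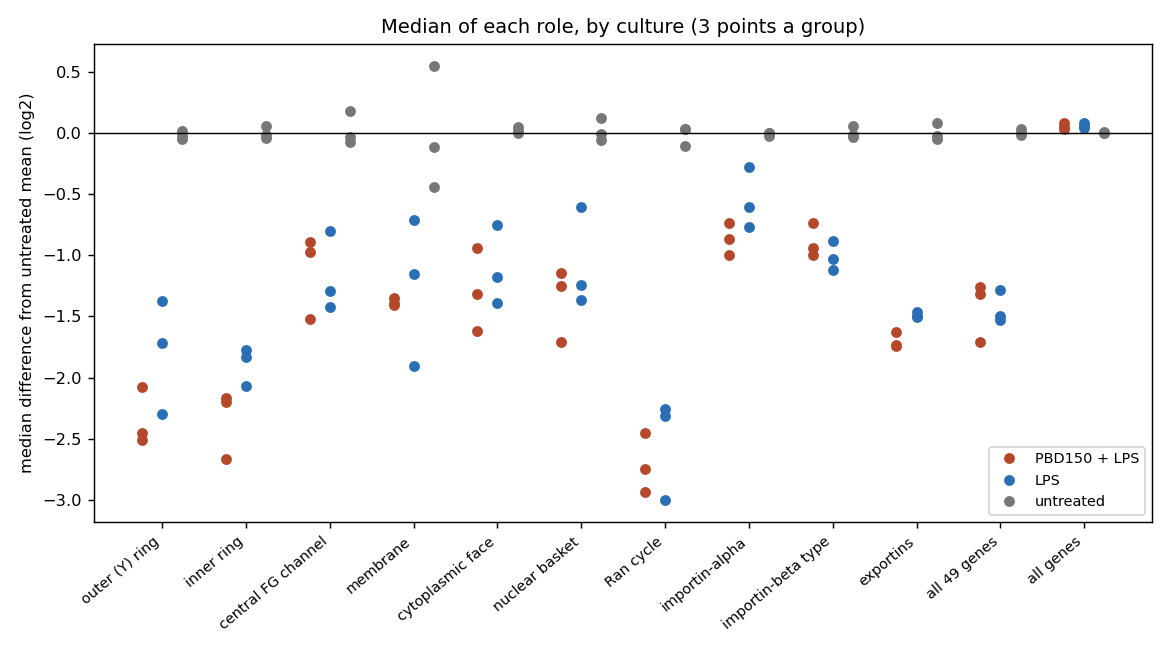
Median difference from the untreated mean (y axis, log2) of the genes of each role, in each of the 9 cultures (3 points a group, red PBD150 plus LPS, blue LPS, grey untreated). The medians of all 49 genes lie between -1.71 and -1.26 with PBD150 plus LPS and between -1.53 and -1.29 with LPS, while those of all named genes lie close to 0.

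Promoters are shown for 4 genes that fell, picked because they hold the motifs printed in capitals. Whether these motifs bear on the falls was not tested. RefSeq windows (GRCh38.p14) from 250 bases before to 50 bases after the start were found for 43 of the 49 genes, 57 windows in all, and were searched on both strands. CACGTG, the E-box that MYC and related factors bind, stood in 8 of the 57 windows (14%), against 8.45% of 15121 windows of genes named on the array and 7.26% of all 35116 windows. CCGGAA, an ETS family motif, stood in 35.1%, against 21.3% and 17.2%. GCATGCGC, part of the NRF1 motif, stood in 10.5%, against 3.55% and 3.05%. CCAAT, bound by NF-Y, stood in 42.1%, against 34.4% and 34.6%, and GGGCGG, bound by SP1, in 49.1%, against 58.5% and 45%. The E2F motif TTTCCCGC and the NF-kB motif GGACTTTCC were found in 0 windows, against 2.08% and 0.39% of those of genes named on the array, and TTTGGCGC in 1. Genes called lower with LPS had 40 of the windows and the others 17. The shares in these 2 sets were 15% and 11.8% for CACGTG, 40% and 23.5% for CCGGAA and 12.5% and 5.88% for GCATGCGC. For CCAAT they were 37.5% and 52.9%, and for GGGCGG 52.5% and 41.2%. These are shares of letters in small windows and were not tested. The 250 bases before the start follow for the 3 genes with the smallest p for LPS that hold CACGTG there and for the first that holds both CCGGAA and GCATGCGC. Each is written along the gene's strand, with these motifs in capitals.
IPO7, chr11:9384402-9384651, plus strand: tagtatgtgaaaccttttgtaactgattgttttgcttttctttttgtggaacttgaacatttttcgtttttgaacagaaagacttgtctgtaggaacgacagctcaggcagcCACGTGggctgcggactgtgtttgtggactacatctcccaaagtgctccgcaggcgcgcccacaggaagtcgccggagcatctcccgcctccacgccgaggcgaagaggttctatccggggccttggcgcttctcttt
IPO4, chr14:24188817-24189066, minus strand: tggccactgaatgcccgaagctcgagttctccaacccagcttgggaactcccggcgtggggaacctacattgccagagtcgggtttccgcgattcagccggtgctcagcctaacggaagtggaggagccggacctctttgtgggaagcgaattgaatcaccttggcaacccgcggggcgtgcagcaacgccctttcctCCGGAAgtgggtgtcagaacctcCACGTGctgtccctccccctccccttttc
NUP50, chr22:45163675-45163924, plus strand: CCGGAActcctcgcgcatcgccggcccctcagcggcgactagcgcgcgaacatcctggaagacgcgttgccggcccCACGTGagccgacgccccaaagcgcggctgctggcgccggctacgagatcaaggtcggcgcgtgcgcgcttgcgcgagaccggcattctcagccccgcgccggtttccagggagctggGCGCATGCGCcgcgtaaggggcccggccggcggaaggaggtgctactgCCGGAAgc
NUP107, chr12:68686728-68686977, plus strand: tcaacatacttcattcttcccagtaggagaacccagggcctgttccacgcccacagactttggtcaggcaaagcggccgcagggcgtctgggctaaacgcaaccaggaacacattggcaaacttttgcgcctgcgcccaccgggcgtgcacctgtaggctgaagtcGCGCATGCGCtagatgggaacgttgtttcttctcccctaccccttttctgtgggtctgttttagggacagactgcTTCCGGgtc
CACGTG begins 138 bases before the start of IPO7, 29 before that of IPO4 and 174 before that of NUP50. GCATGCGC reads almost the same on both strands, so its matches on the 2 strands overlap in the windows of NUP50 and NUP107 and form 1 capital run. CCGGAA or its reverse complement lies 52 bases before the start of IPO4, 9 before that of NUP107 and both 250 and 8 before that of NUP50.

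In the outer ring, NUP107, a core scaffold subunit of the Y complex, stood at 10.96, 11.24 and 11.04 with PBD150 plus LPS, 11.92, 11.28 and 11.07 with LPS and 13.47, 13.29 and 13.35 in untreated cultures. No treated culture came within 1 log2 unit of an untreated one. LPS minus untreated was -1.95 ± 0.24 (SE, adjusted p = 0.000722), a 3.86-fold fall. SEH1L, a subunit that also serves in the amino acid sensing complex GATOR2, had 5.79, 6.12 and 6.95 with PBD150 plus LPS, 8.01, 6.51 and 6.61 with LPS and 10.10, 9.99 and 10.13 untreated. Its difference with LPS, -3.03 ± 0.44 (adjusted p = 0.00151), came with a spread of 0.84 (SD) between the LPS cultures, LPS replicate 1 being the highest. NUP37, a peripheral subunit found in animals but not in all fungi, had 6.97, 6.68 and 8.03 with PBD150 plus LPS, 8.01, 7.96 and 7.33 with LPS and 10.20, 10.31 and 10.41 untreated, and its LPS difference was -2.54 ± 0.36 (adjusted p = 0.00133). A dimmer probe of NUP37 gave -1.93 with LPS, also a fall. NUP160, at the end of one arm of the Y, had 7.63, 7.68 and 8.05 with PBD150 plus LPS, 8.76, 8.41 and 7.87 with LPS and 10.01, 10.24 and 10.15 untreated. It changed by -1.78 with LPS by its brighter probe and by -1.83 by its dimmer one. The remaining 3 subunits fell as well, NUP43 at -1.71, NUP133 at -1.02 and NUP85 at -0.99. With PBD150 plus LPS the falls of the 7 genes against untreated cells ran from -3.79 for SEH1L to -1.16 for NUP85.

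The inner ring holds the scaffold to the membrane and carries the channel nucleoporins. NUP205, one of its largest subunits, had 10.15, 10.05 and 10.26 with PBD150 plus LPS, 10.61, 10.50 and 10.36 with LPS and 12.45, 12.45 and 12.40 untreated, with a spread of at most 0.12 (SD) in any group. The difference was -2.28 ± 0.16 with PBD150 plus LPS (adjusted p = 4.68e-05) and -1.95 ± 0.16 with LPS (adjusted p = 0.000119), the smallest p of the 49 genes in each comparison. NUP35, a membrane-binding subunit also called NUP53, had 7.51, 7.32 and 7.75 with PBD150 plus LPS, 8.81, 8.08 and 8.01 with LPS and 10.87, 10.92 and 10.70 untreated. It was 9.86-fold lower with PBD150 plus LPS and 5.75-fold lower with LPS than in untreated cells. NUP93, which links the inner ring to the channel trimer, had 12.03, 11.75 and 11.51 with PBD150 plus LPS, 12.42, 12.06 and 12.07 with LPS and 13.83, 13.90 and 13.80 untreated. Its difference with LPS was -1.66 ± 0.20 (adjusted p = 0.00064), and none of its groups overlapped. NUP155, which also binds the membrane, had 6.16, 5.60 and 6.89 with PBD150 plus LPS, 7.46, 6.76 and 6.47 with LPS and 8.20, 8.31 and 8.30 untreated, and changed by -1.37 ± 0.36 with LPS (adjusted p = 0.0263). NUP188, the relative of NUP205, stood at 6.74, 3.57 and 7.28 with PBD150 plus LPS, 6.89, 7.17 and 6.85 with LPS and 8.90, 9.02 and 8.90 untreated. The low value of PBD150 plus LPS replicate 2 is the mean of arrays at 0, 3.96 and 6.75, the first at the floor. That culture raises the shared spread, so the LPS difference of -1.97 ± 0.81 did not pass (adjusted p = 0.124), although LPS and untreated cultures stood apart.

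In the channel, NUP54, an FG nucleoporin of the trimer with NUP62, had 5.79, 6.62 and 7.22 with PBD150 plus LPS, 7.73, 7.31 and 6.88 with LPS and 9.69, 9.61 and 9.52 untreated. It changed by -3.06 ± 0.36 with PBD150 plus LPS (adjusted p = 0.000498) and by -2.30 ± 0.36 with LPS (adjusted p = 0.00251). NUP62 itself had 11.23, 10.79 and 10.90 with PBD150 plus LPS, 10.13, 11.42 and 11.34 with LPS and 11.56, 11.46 and 11.54 untreated. Here LPS replicate 1 stood far below the other LPS cultures, and the difference of -0.55 ± 0.34 did not pass (adjusted p = 0.291). NUP98, an FG nucleoporin found on both faces of the pore, had 6.05, 7.45 and 7.51 with PBD150 plus LPS, 7.47, 7.17 and 6.70 with LPS and 8.96, 8.59 and 8.47 untreated, a difference of -1.56 ± 0.41 with LPS (adjusted p = 0.0256). Its dimmer probe changed by -1.44 with LPS, and with PBD150 plus LPS it was at -0.67 against untreated and not called (adjusted p = 0.217). NUP62CL, a relative of NUP62, was above the noise limit on 0, 2 and 1 of the 9 arrays with PBD150 plus LPS, LPS and no treatment. NUP210, a membrane-spanning nucleoporin whose level is known to vary between cell types, had 7.02, 7.03 and 8.19 with PBD150 plus LPS, 8.34, 7.31 and 7.01 with LPS and 9.79, 10.14 and 10.37 untreated. It changed by -2.55 ± 0.43 with LPS (adjusted p = 0.0033). Its relative NUP210L was above the limit on 3 of 9 untreated arrays and on 0 arrays of the treated groups.

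The cytoplasmic face held the gene that went the other way. NUP214, an FG nucleoporin that docks exported cargo and binds the exportin XPO1, had 12.19, 11.94 and 11.90 with PBD150 plus LPS, 11.54, 11.91 and 12.20 with LPS and 10.90, 10.82 and 10.97 untreated, so all 6 treated cultures lay above all 3 untreated ones. The rise was 1.11 ± 0.21 with PBD150 plus LPS (adjusted p = 0.0052) and 0.99 ± 0.21 with LPS (adjusted p = 0.0104), 2.16-fold and 1.98-fold. Its direct partner NUP88 went down, with 7.55, 7.34 and 7.88 with PBD150 plus LPS, 8.08, 8.04 and 7.78 with LPS and 9.85, 9.83 and 9.76 untreated. NUP88 changed by -2.22 ± 0.20 with PBD150 plus LPS (adjusted p = 0.000124) and by -1.85 ± 0.20 with LPS (adjusted p = 0.000341). The messages of these partners thus moved in opposite directions. AAAS, which encodes aladin, had 6.53, 6.83 and 7.20 with PBD150 plus LPS, 6.78, 6.97 and 6.76 with LPS and 8.15, 8.28 and 8.01 untreated, a difference of -1.31 ± 0.21 with LPS (adjusted p = 0.00282). RANBP2, the SUMO ligase of the cytoplasmic filaments, had 5.11, 5.22 and 6.76 with PBD150 plus LPS, 7.30, 5.60 and 5.77 with LPS and 7.93, 8.10 and 8.13 untreated. Its treated cultures spread widely, and it changed by -1.83 ± 0.54 with LPS (adjusted p = 0.0432). The human genome holds near-identical RGPD copies of RANBP2, so which of them this probe reads is uncertain. RAE1, an mRNA export factor that binds NUP98, changed by -0.69 ± 0.19 with PBD150 plus LPS (adjusted p = 0.0289), while its LPS difference of -0.38 ± 0.19 did not pass (adjusted p = 0.195).

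On the nuclear side, NUP50, which helps importins to let go of cargo, had 6.82, 6.80 and 6.98 with PBD150 plus LPS, 6.44, 7.28 and 7.16 with LPS and 8.65, 8.53 and 8.40 untreated, a difference of -1.57 ± 0.24 with LPS (adjusted p = 0.00224). NUP153, which anchors the basket, had 5.95, 6.44 and 6.55 with PBD150 plus LPS, 7.08, 6.001 and 5.28 with LPS and 7.87, 7.51 and 7.68 untreated, and changed by -1.57 ± 0.41 with LPS (adjusted p = 0.0275). Its LPS cultures covered more than 1 log2 unit. TPR, the coiled-coil protein that forms the basket filaments, had 12.79, 12.61 and 12.47 with PBD150 plus LPS, 12.90, 12.84 and 12.65 with LPS and 13.53, 13.42 and 13.48 untreated. The difference was small, -0.68 ± 0.17 with LPS (adjusted p = 0.0224), and without quantile normalisation it was -0.28 and not called.

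The Ran cycle supplies the direction of transport. RANBP1, a cytoplasmic protein that speeds GTP hydrolysis on Ran, had 10.20, 9.91 and 9.72 with PBD150 plus LPS, 9.57, 10.34 and 10.40 with LPS and 12.69, 12.73 and 12.55 untreated, and was 6.56-fold lower with PBD150 plus LPS and 5.87-fold lower with LPS. The LPS difference was -2.55 ± 0.26 (adjusted p = 0.000267). RCC1, the chromatin-bound exchange factor that loads Ran with GTP, had 5.54, 6.40 and 6.91 with PBD150 plus LPS, 7.43, 6.64 and 3.73 with LPS and 10.30, 10.47 and 10.54 untreated. Its difference with LPS, -4.50 ± 0.83 (adjusted p = 0.00537), was the largest fall of the 49 by its mean, but the lowest LPS culture averages arrays at 4.87, 0 and 6.33, the second at the floor. Taking the median of the 3 arrays of each culture gave RCC1 a difference of -4.096, and a dimmer RCC1 probe gave -2.30 ± 0.22 (adjusted p = 0.000211). RANGAP1, which triggers GTP hydrolysis, had 5.19, 5.64 and 4.82 with PBD150 plus LPS, 4.79, 4.78 and 5.06 with LPS and 6.46, 5.97 and 5.81 untreated. It changed by -0.86 ± 0.27 with PBD150 plus LPS (adjusted p = 0.0442) and by -1.20 ± 0.27 with LPS (adjusted p = 0.0127). The first of these calls was lost under 13 of 19 alternative settings, with an adjusted p of up to 0.142 (limma).

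Importin-alpha proteins recognise the classical nuclear localisation signal and hand it to importin-beta. KPNA3 had 11.67, 12.16 and 11.95 with PBD150 plus LPS, 12.64, 11.85 and 12.10 with LPS and 13.05, 12.997 and 13.02 untreated, a difference of -1.10 ± 0.24 with PBD150 plus LPS (adjusted p = 0.0105) and of -0.83 ± 0.24 with LPS (adjusted p = 0.0395). Without quantile normalisation the LPS value was -0.45 and not called. KPNA1 had 7.41, 8.29 and 8.45 with PBD150 plus LPS, 9.09, 7.53 and 7.83 with LPS and 9.36, 9.40 and 9.32 untreated, with LPS replicate 1 close to the untreated cultures. Its difference of -1.21 ± 0.42 with LPS did not pass by the brighter probe (adjusted p = 0.0747), whereas the dimmer probe changed by -1.30 ± 0.21 (adjusted p = 0.00296). With PBD150 plus LPS the brighter probe was at -1.31 ± 0.42 and not called (limma, adjusted p = 0.0518). The dimmer one changed by -1.79 ± 0.21 there (adjusted p = 0.000498). KPNA5 had 4.20, 4.07 and 4.33 with PBD150 plus LPS, 5.03, 4.52 and 4.30 with LPS and 5.49, 4.72 and 4.999 untreated. It exceeded the noise limit on 5, 8 and 9 of 9 arrays in these groups, and it passed with PBD150 plus LPS (-0.87 ± 0.27, adjusted p = 0.0439) but not with LPS (-0.45 ± 0.27, adjusted p = 0.277). The call with PBD150 plus LPS was lost under 10 of 19 alternative settings, with an adjusted p of up to 0.14 (limma). KPNA4 had 9.72, 9.34 and 10.20 with PBD150 plus LPS, 9.77, 9.79 and 9.86 with LPS and 10.05, 10.12 and 10.16 untreated. Neither KPNA4 (-0.30 ± 0.23 with LPS, adjusted p = 0.396) nor KPNA6 (-0.35 ± 0.28, adjusted p = 0.413) passed in any comparison.

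Among the importin-beta type receptors, IPO7, which carries ribosomal proteins and histone H1, had 6.29, 6.67 and 7.16 with PBD150 plus LPS, 7.05, 6.74 and 6.81 with LPS and 9.26, 9.16 and 9.15 untreated. It changed by -2.49 ± 0.24 with PBD150 plus LPS (adjusted p = 0.000176) and by -2.32 ± 0.24 with LPS (adjusted p = 0.000288). IPO4, an importer of histones and ribosomal proteins, had 10.27, 9.95 and 9.63 with PBD150 plus LPS, 9.73, 9.84 and 10.28 with LPS and 12.01, 12.11 and 12.22 untreated, and was 4.49-fold lower with LPS (adjusted p = 0.000343). The promoters of both are among those printed above. IPO9, which carries histones and actin, had 8.73, 8.57 and 8.82 with PBD150 plus LPS, 8.24, 8.82 and 8.80 with LPS and 9.63, 9.64 and 9.61 untreated, a difference of -1.004 ± 0.20 with LPS (adjusted p = 0.00842). IPO11 had 1.60, 2.81 and 4.19 with PBD150 plus LPS, 4.98, 4.11 and 4.18 with LPS and 6.63, 6.92 and 7.03 untreated. With PBD150 plus LPS it exceeded the noise limit on 4 of 9 arrays, so its -3.996 ± 0.58 against untreated rests on arrays at or near the floor. With LPS, where 8 of 9 arrays exceeded the limit, it changed by -2.44 ± 0.58 (adjusted p = 0.0167). TNPO3, the importer of splicing factors rich in serine and arginine, was at -0.84 and not called with PBD150 plus LPS (adjusted p = 0.0743) and changed by -1.11 ± 0.30 with LPS (adjusted p = 0.0304). TNPO1, which imports RNA-binding proteins such as HNRNPA1, changed by -0.85 ± 0.22 with PBD150 plus LPS (adjusted p = 0.0223) and was at -0.60 and not called with LPS (adjusted p = 0.087). TNPO2, the relative of TNPO1, spread over more than 1 log2 unit in both treated groups and was not called. IPO13, which works in both directions, was at 0.38 with PBD150 plus LPS and 0.36 with LPS and did not pass (adjusted p = 0.178 and 0.217), although its treated cultures all lay above the untreated ones. IPO8 exceeded the noise limit on 7, 5 and 8 of 9 arrays with PBD150 plus LPS, LPS and no treatment.

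Exportins carry cargo out of the nucleus with Ran-GTP. XPO5, the exporter of precursor microRNAs, had 9.09, 8.99 and 8.98 with PBD150 plus LPS, 9.22, 9.12 and 9.39 with LPS and 10.73, 10.71 and 10.73 untreated, and these 3 sets of cultures did not overlap. It changed by -1.70 ± 0.16 with PBD150 plus LPS (adjusted p = 0.000168) and by -1.48 ± 0.16 with LPS (adjusted p = 0.000382). XPO4, which exports the translation factor eIF5A, had 8.79, 8.50 and 8.41 with PBD150 plus LPS, 8.49, 8.84 and 8.77 with LPS and 10.41, 10.31 and 10.27 untreated, 3.09-fold lower with LPS (adjusted p = 0.000485). XPO7 had 4.69, 5.18 and 6.31 with PBD150 plus LPS, 5.93, 6.02 and 4.84 with LPS and 8.30, 8.19 and 8.03 untreated, a difference of -2.57 ± 0.45 with LPS (adjusted p = 0.00399). XPO1, also called CRM1, the receptor for leucine-rich export signals, had 10.59, 11.06 and 11.09 with PBD150 plus LPS, 11.64, 11.06 and 10.82 with LPS and 12.42, 12.20 and 12.24 untreated, and changed by -1.11 ± 0.25 with LPS (adjusted p = 0.0147). XPO6, the exporter of actin bound to profilin, was at -0.29 with PBD150 plus LPS and -0.21 with LPS, and neither difference passed (adjusted p = 0.272 and 0.464).

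**Figure D3:**
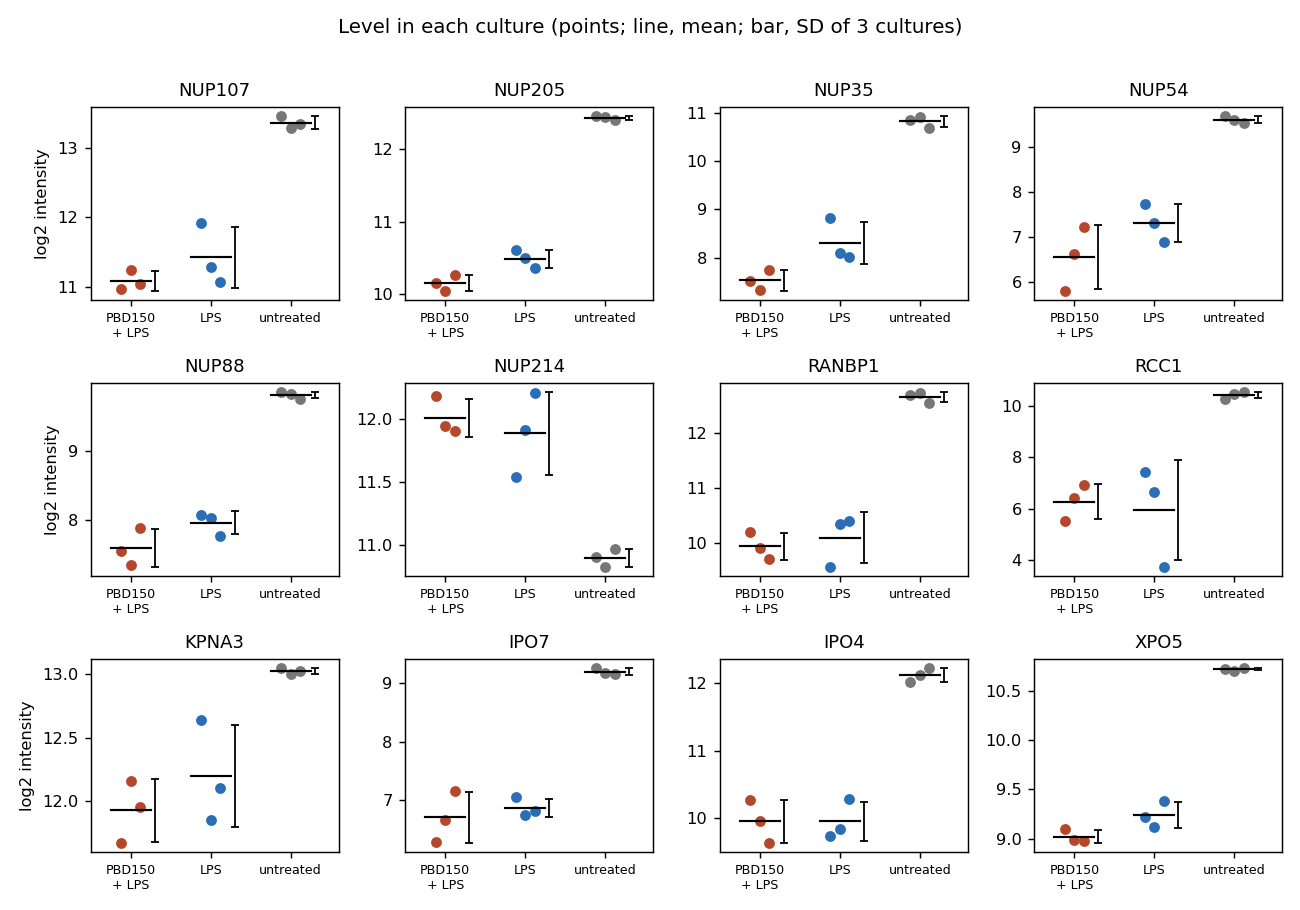
Level in each culture (y axis, log2 intensity, a scale of its own for each gene) for 12 genes, with PBD150 plus LPS in red, LPS in blue and untreated in grey; lines are means and bars SD of 3 cultures. NUP214 is the gene whose treated cultures lie above the untreated ones, between 11.54 and 12.20 against 10.82 to 10.97.

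The effect of PBD150 given before LPS, which the series title asks about, was read from PBD150 plus LPS minus LPS. None of the 49 genes passed the test, and 0% of all named genes did (limma, smallest adjusted p of the 49 genes = 0.884). At an unadjusted p under 0.05, 2 genes were lower, NUP35 and IPO11, and 0 were higher, where 2.81% of all named genes were lower and 1.65% higher, so these counts lay near the background. The median difference was -0.18, against -0.01 over all named genes. Below 0 lay 36 of the 49 differences, as did 7744 of those of the 15240 named genes. The median was -0.38 without LPS replicate 3 and -0.10 without LPS replicate 1. The cultures did not overlap for 4 genes lower with PBD150 plus LPS (NUP35, NUP93, NUP205 and XPO5), a share of 8.16% where 4.46% of all named genes did so, and for IPO8 in the other direction, where 3.28% of named genes did. For 26 of the 49 genes the 95% interval, from a spread shared by all 3 groups, excluded a change of 2-fold or more. It did so for 8533 of the 15240 named genes, a similar share. For the rest of the 49 these 3 cultures a group could not exclude one. The untreated cultures varied less (median SD 0.09, against 0.27 with PBD150 plus LPS and 0.40 with LPS). Intervals from the shared spread can therefore be too narrow for this comparison, and the 26 may be too many. Among the genes by which this comparison is best described, NUP35 differed by -0.78 (95% interval -1.35 to -0.20, adjusted p = 0.884). The second NUP35 probe gave -0.81, from -1.24 to -0.38, again without overlap (adjusted p = 0.643). NUP160 differed by -0.56 (-1.14 to 0.02), NUP93 by -0.42 (-0.88 to 0.03) and NUP54 by -0.76 (-1.59 to 0.07), each with an adjusted p of 0.906. IPO11, at -1.56 (-2.87 to -0.25, adjusted p = 0.906), rests on the arrays near the floor described above. NUP205 was at -0.33 (-0.71 to 0.04) and XPO5 at -0.22 (-0.59 to 0.15). All 7 outer ring, 5 inner ring, 5 exportin, 5 importin-alpha and 2 membrane values lay below 0, none of them called. These genes were read in the same cultures, so their shared sign is not replication. Of the 45 genes above the noise limit, 21 changed sign under at least 1 alternative setting. Above 0 lay 6 of 10 values of the importin-beta type, 2 of 3 of the Ran cycle, 2 of 4 of the channel, 2 of 5 of the cytoplasmic face and 1 of 3 of the basket. For 2 genes the probes pointed apart in this comparison. NUP98 was at -0.11 by the brighter and 0.77 by the dimmer probe, and RCC1 at 0.35 and -0.64. The value of 0.35 rests on LPS replicate 3, which holds the array at the floor described above. By the median of the 3 arrays of each culture, RCC1 against untreated was at -4.07 with PBD150 plus LPS and -4.096 with LPS. The dimmer RCC1 probe had an interval of -1.14 to -0.14 and no overlap, and was not called (limma, adjusted p = 0.899).

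**Figure D4:**
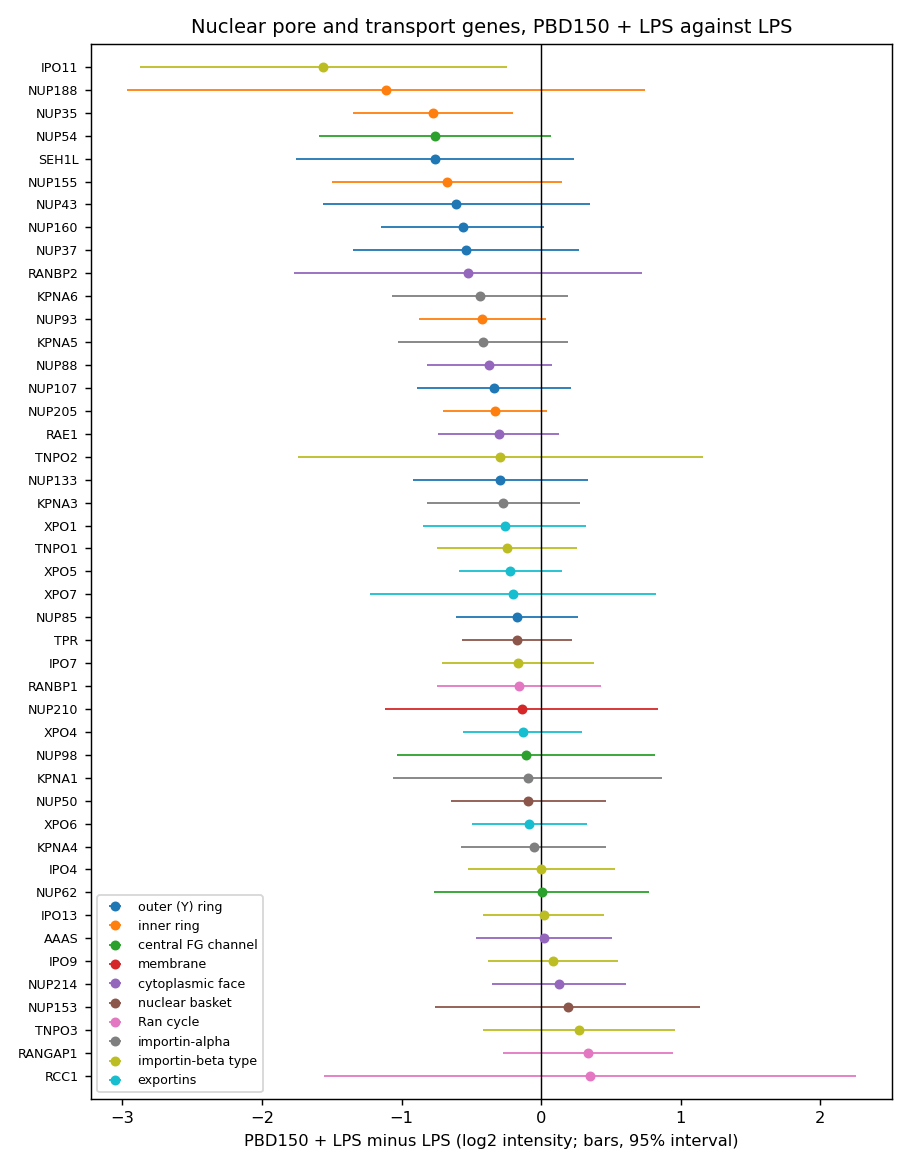
PBD150 plus LPS minus LPS (x axis, log2 intensity) with 95% intervals for the 45 genes above the noise limit on all arrays of at least 1 group, sorted by size and coloured by place or role. The intervals of NUP35 and IPO11 lie wholly below 0, and those of the other genes plotted include 0.

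Genes of the same pathway outside the symbol rule were mostly lower as well. Of 35 listed, 28 were measured, and 18 of them fell and 1 rose with PBD150 plus LPS, while 18 fell and 2 rose with LPS. Their median difference was -1.47 with PBD150 plus LPS and -1.31 with LPS. NDC1, a membrane nucleoporin that anchors the pore, changed by -3.13 ± 0.26 with PBD150 plus LPS (adjusted p = 0.000101) and by -2.76 ± 0.26 with LPS (adjusted p = 0.000213). THOC2, of the THO complex that couples transcription to mRNA export, changed by -1.62 ± 0.16 with LPS (adjusted p = 0.000228), and DDX19A, an RNA helicase of the cytoplasmic face, by -1.66 ± 0.21 (adjusted p = 0.000768). THOC5 exceeded the noise limit on 1, 1 and 8 of 9 arrays with PBD150 plus LPS, LPS and no treatment. The genes that rose with LPS were MCM3AP, a scaffold of mRNA export at the basket, by 0.59, and SENP1, a SUMO protease, by 0.56. Between PBD150 plus LPS and LPS 0 of the 28 passed (limma), with 1 lower and 2 higher at an unadjusted p under 0.05. Of all named genes 2.81% were lower and 1.65% higher at that threshold. One of the 2 higher was THOC5, at 1.46, which compares values mostly below the noise limit.

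Proliferation genes moved with the pore genes. All 9 measured of 11 listed fell in both treated groups, and their summed deposited intensity per culture was 28970 to 31700 with PBD150 plus LPS and 34590 to 51910 with LPS, against 100100 to 103600 untreated. PCNA and RRM2, the brightest of them at untreated means of 15.99 and 14.66, weigh most in this sum. MCM4, a subunit of the replicative helicase, was at -3.48 with PBD150 plus LPS and -3.24 with LPS, and MKI67, the Ki-67 antigen, at -2.51 and -2.54. CCNA2, cyclin A2, was at -3.73 and -3.32. MYC, a transcription factor that binds the E-box, was at -5.13 and -3.76, above the noise limit on 1 and 3 of 9 treated arrays against 9 of 9 untreated. Among the monocyte and macrophage markers 5 of 9, CD14, TYROBP, ITGAM, CSF1R and CD4, were called higher in each treated group. CD33, LYZ, SPI1 and FCGR1A were not called, with LYZ at -0.65 and SPI1 at -0.14 with LPS. Summed deposited intensities of the 9 were 139100 to 156900 with PBD150 plus LPS and 144300 to 149300 with LPS, against 6965 to 9239 untreated. Such a sum weighs the brightest probes most, here CD14 and TYROBP, at means of 15.86 and 15.83 with LPS. Of the T or NK cell markers 2 of 7, CD2 and NKG7, were called higher in each treated group, and the 7 summed to 30140 to 38270 and 39280 to 44730, against 12160 to 16960 untreated. NKG7, at means of 14.94 with LPS and 13.85 untreated, weighs most in this sum, so it says little of the other markers. Of the 5 B cell markers CD79A was called lower in both treated groups, while MS4A1 and CR2 were called higher with LPS. Their sum was 589.2 to 718, 772.2 to 953.8 and 857.2 to 1183 in the same order, and that of the epithelial or fibroblast markers, of which 2 of 6, EPCAM and DCN, were called higher in each, was 780.8 to 910.1, 659.7 to 977.6 and 308 to 493.8. The part of these shifts in the lower pore and transport messages was not tested.

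The treated cultures varied more than the untreated ones. The median SD of the 49 genes between cultures was 0.27 with PBD150 plus LPS and 0.40 with LPS, against 0.09 untreated, and that of all named genes was 0.33, 0.35 and 0.15 in the same order. Among the 45 genes above the noise limit, PBD150 plus LPS replicate 3 held the highest value of its group for 30, where it did so for 43.4% of 11426 named genes above the limit. LPS replicate 1 held the highest value of its group for 29, where it did so for 41.2%. SEH1L, NUP107 and KPNA1 are examples of genes highest in LPS replicate 1, while RANBP1 and TNPO3 were lowest there.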

How the data were processed

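Total RNA of U937 cells (2.5 µg, amplified and labelled with Cy5) was read on Phalanx Human OneArray slides in 1 colour, per the labels. The deposited values are spot intensity on a linear scale. Some lie below 0, so background had been subtracted. Neither scanner nor scaling is given in the sources used. Here values under 1 were set to 1 before taking log2, the 27 arrays were quantile normalised, and the 3 arrays of each of 9 cultures were averaged. Floored values made up 4.35% to 7.59% of an array. limma 3.58.1 (R 4.3.3) fitted group means over the 9 cultures, with Benjamini-Hochberg adjustment over 30968 probes at 0.05. The script was tested on simulated data.

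A gene was its brightest probe by mean log2 value. Of the probes 17397 had 1 symbol and 13571 were unnamed here. Values in every culture are given for up to 4 genes of each role with the smallest p for LPS, for 5 genes with the smallest p for PBD150 plus LPS minus LPS, and for genes called against the direction of their role. NUP188 falls outside this rule and is also given in full. NUP62CL and NUP210L fall under the rule, but only their numbers of arrays above the noise limit are given. XPO5, NUP205, NUP35 and NUP93 fall under it as well. That their cultures do not overlap between PBD150 plus LPS and LPS was picked out after their values were seen, and so was IPO8. The genes and lists were chosen with earlier results of these data known. Alternatives were other scalings, a pseudocount, a filter on dim probes, other probe summaries, weights, blocks, updated symbols and each culture left out. Nothing given here says whether replicate numbers pair the cultures, and the main fit does not pair them. Deviations from the group mean correlated at -0.219 to 0.036 for same-numbered cultures and at -0.0715 to 0.189 for other numbers. Deviations within a group sum to 0, so these values cannot decide the question.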

Additional observations from a re-analysis of the deposited data

How the results depend on the processing

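Against untreated cells, none of the called genes changed direction under any of 19 alternatives, while 9 of 37 calls with PBD150 plus LPS (RANGAP1, KPNA5, NUP153, RAE1, TNPO1, NUP188, RANBP2, IPO9 and NUP98) and 13 of 34 with LPS (KPNA3, NUP133, NUP153, RANBP2, NUP155, TPR, TNPO3, NUP98, NUP43, IPO11, XPO1, IPO9 and NUP85) were lost under at least 1. Leaving out 1 culture gave 22 to 35 genes lower and 1 higher for LPS, and 29 to 39 lower and 1 to 2 higher for PBD150 plus LPS against untreated, with medians of -1.471 to -1.275 and -1.682 to -1.213. For PBD150 plus LPS minus LPS it gave 0 genes lower and 0 higher, with medians of -0.3831 to -0.1026. Without quantile normalisation 30 genes were called lower with PBD150 plus LPS and 22 with LPS, the LPS median was -1.009 with 2 genes higher, the PBD150 plus LPS minus LPS median -0.3897, and KPNA4 with LPS turned to 0.0042 (not called). That scaling moved the median of all named genes to 0.381 and -0.165 in these comparisons and to 0.248 in PBD150 plus LPS minus untreated. Median centring gave -1.488 (LPS) and -1.567 (PBD150 plus LPS against untreated), leaving out dim probes -1.519 and -1.663, a pseudocount of 16 -1.254 (LPS) and array weights -1.515 (LPS). Array weights gave 3 genes higher with PBD150 plus LPS against untreated, and the 27 arrays with the culture as a random block and the updated symbols each gave 2 higher in both comparisons with untreated. The median of the 3 arrays of a culture, chosen after seeing the data, gave 30 genes lower with LPS and 34 with PBD150 plus LPS against untreated. With the replicate number as a block, 24 fell with LPS, 31 with PBD150 plus LPS against untreated and 0 between PBD150 plus LPS and LPS. The cause of these shifts was not tested. Between PBD150 plus LPS and LPS, 21 of 45 genes above the noise limit, none called, changed sign under at least 1 alternative and 24 kept theirs. Signal limits IPO11, KPNA5, NUP43 and NUP188, which exceeded the noise limit on 4, 5, 6 and 7 of 9 PBD150 plus LPS arrays. RANBP2, RANGAP1, TNPO2 and XPO7 each exceeded it on 8 of these 9.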
